A study of Homo sapiens with 36 samples.

Results

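RNA-seq profiles of 2 lines of resistant A2780 ovarian cancer cells were compared under combined serine/glycine deprivation and carboplatin, the condition named -SG carbo. The comparison set A2780 cis SSP -SG carbo cells (3 libraries, numbered 34 to 36) against A2780 cis -SG carbo cells (3 libraries, numbered 22 to 24), which are 6 of the 36 libraries of the series and 2 of its 12 conditions. All genes in the count table were considered, and the libraries were chosen by their labels, not by measured values. The A2780 cis line was obtained by chronic exposure of the parental A2780 line to cisplatin and is platinum-resistant. The cis SSP line grew out of cis cells kept without serine and glycine and is labelled as having regained the serine synthesis pathway. Both groups therefore share the cisplatin selection, the medium without serine and glycine (a homemade RPMI with dialyzed serum) and carboplatin, whose dose the labels give as 6 M and other assays of the study as 6 µM. Each line is 1 population of cells, and the 3 libraries of a condition are described as technical replicates. The p-values therefore measure the spread between libraries and not between independent cultures or independent outgrowths.

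Serine is made from the glycolytic intermediate 3-phosphoglycerate by PHGDH, PSAT1 and PSPH in turn. SHMT1 and SHMT2 then convert it to glycine and pass a carbon unit to folate, which feeds the synthesis of purines and thymidylate. When an amino acid is scarce, the kinase GCN2 favours translation of the transcription factor ATF4, which induces amino acid synthesis, transport and tRNA charging genes. Carboplatin forms DNA crosslinks, which are repaired by the Fanconi anemia and homologous recombination pathways and which activate p53.

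Total counts on genes were 15568737 to 16664649 in the cis -SG carbo libraries and 14644029 to 16399032 in the cis SSP -SG carbo libraries. The cis libraries 23 and 24 had 17.9% and 14.9% of their counts on no annotated feature, against 8.53% in cis library 22 and 5.55% to 6.44% in the cis SSP libraries. The libraries also differed by line in the mean exon length of the counted genes (7299 to 7451 bases in cis, 6704 to 6864 in cis SSP) and in the share of counts on mitochondrially encoded genes (3.71% to 4.72% in cis, 6.59% to 8.41% in cis SSP). The part of these differences in the results was not tested, and the main counts are also given without libraries 23 and 24. Expression is given as CPM, library-size-scaled counts made comparable by TMM over all 36 libraries, and a positive log2 fold change is higher in cis SSP cells.

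The lines differed widely. Of 14313 genes tested with edgeR's quasi-likelihood test, 10561 (73.8%) had a Benjamini-Hochberg adjusted p-value under 0.05, the threshold for a called gene, with 5332 (37.3%) higher and 5229 (36.5%) lower in cis SSP cells. Scaling by total counts in place of TMM moved the median log2 fold change of all genes from -0.0008 to -0.14 and the split to 4255 higher and 6392 lower, so the changes given here are relative to the TMM scale. The median absolute log2 fold change was 0.46, and 1152 called genes were higher and 1833 lower by at least 1 on the log2 scale. In 10489 genes (73.3%) the 3 and 3 libraries did not overlap. Without libraries 23 and 24, 8922 of the 10561 called genes were still called in the same direction, and 10546 of the 10552 that could be tested had the same sign. With so many genes called, the size of a change and the share of a gene group that moved one way say more than a call by itself. Counts of list members below stand beside the shares of 37.3% higher and 36.5% lower over all genes tested.

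PHGDH, the first enzyme of serine synthesis (GRCh37, chromosome 1, 120191034 to 120286841), was at 176, 152 and 159 CPM in cis libraries 22 to 24 and at 318, 320.0 and 328 CPM in cis SSP libraries 34 to 36. All 3 cis SSP libraries lay above all 3 cis libraries, and the log2 fold change was 0.93 (standard error 0.0334, edgeR adjusted p = 3.71e-12). PSAT1, the second enzyme, was at 692, 598 and 641 CPM in cis and 925, 937 and 979 CPM in cis SSP cells, again without overlap (log2 fold change 0.50, standard error 0.0313, edgeR adjusted p = 2.02e-09). PSPH, the last enzyme, was at 105, 85.4 and 92.8 CPM in cis and 96.4, 95.6 and 102 CPM in cis SSP cells. The PSPH libraries of the lines overlapped, and no difference passed the test (log2 fold change -0.0039, standard error 0.0450, edgeR adjusted p = 0.941). With total counts in place of TMM, PSPH was called lower (-0.14). PSPH has a near-identical pseudogene elsewhere in the genome, so its counts are less certain.

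SHMT2, the mitochondrial enzyme that converts serine to glycine, was at 227, 195 and 206 CPM in cis and 287, 293 and 299.6 CPM in cis SSP cells (log2 fold change 0.43, standard error 0.0337, edgeR adjusted p = 2.77e-08). Its cytosolic counterpart SHMT1, which overlaps SMCR8 on the opposite strand, was higher in cis SSP cells by 0.95 on the log2 scale. MTHFD2, which oxidises the mitochondrial folate carbon unit, was at 438, 389 and 410.3 CPM in cis and 420.2, 424 and 446 CPM in cis SSP cells, and these ranges overlapped (edgeR adjusted p = 0.9997), although it was called lower with total counts (-0.14). Of 17 folate one-carbon and glycine cleavage enzymes tested (18 listed), 6 were higher and 5 lower in cis SSP cells (median log2 fold change 0.05). The 5 lower enzymes numbered 3 without library 34 or without library 36. The largest increases were in TYMS (1.41) and SHMT1, whereas the mitochondrial ALDH1L2 (-1.17), AMT (-0.62) and MTHFD1L (-0.56) were lower. AMT was not called without libraries 23 and 24 (-0.10), nor without library 24, 34 or 36.

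Amino acid transporters did not move one way. SLC1A4, which carries serine and other small neutral amino acids, was at 166, 136 and 149 CPM in cis and 89.4, 91.1 and 97.4 CPM in cis SSP cells (log2 fold change -0.76, standard error 0.0442, edgeR adjusted p = 8.78e-10). SLC1A5, a glutamine and serine exchanger, was at 442, 355 and 376 CPM in cis and 392, 392 and 416 CPM in cis SSP cells, within the spread of the cis libraries (edgeR adjusted p = 0.604), but it was called lower with total counts (-0.16) and without libraries 23 and 24 (-0.14). Of 11 transporters tested, 4 were higher and 5 lower, with a median of -0.03. SLC38A4 (2.42), the mitochondrial serine carrier SFXN1 (0.63) and SLC38A2 (0.37) were higher, and SLC1A4, the heavy chain SLC3A2 (-0.69) and SFXN3 (-0.69) were lower.

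**Figure D1:**
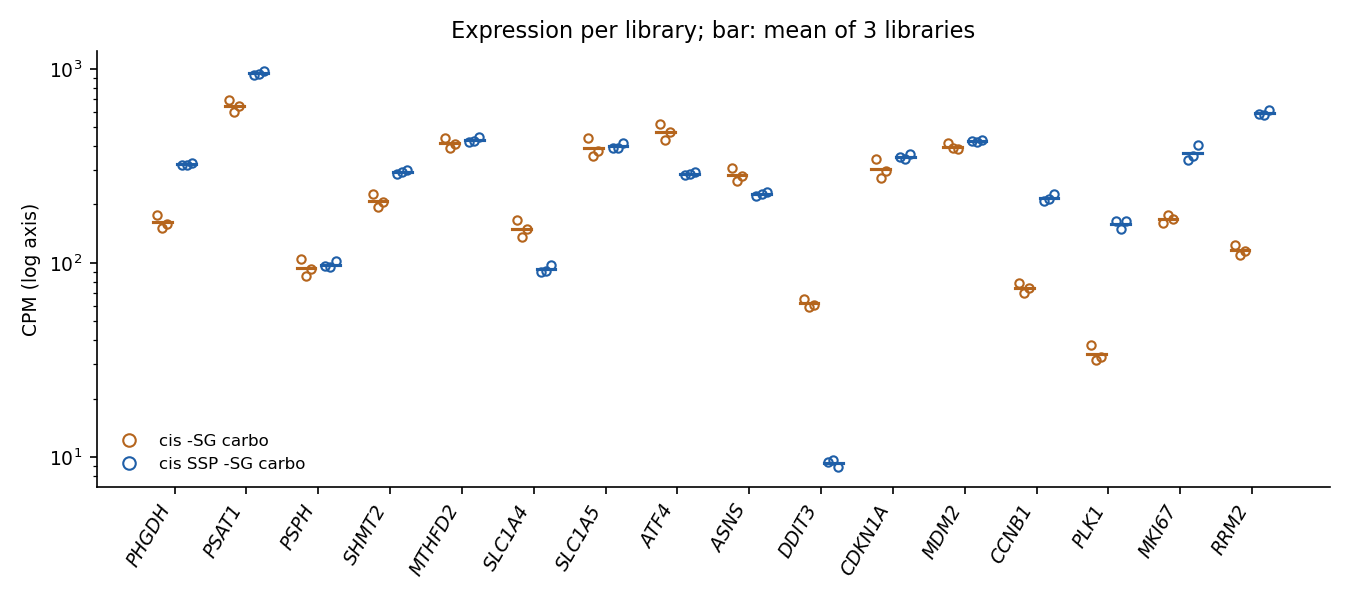
Expression of 16 genes in CPM on a log axis, 1 point per library and a bar at the mean of 3 libraries, for cis -SG carbo and cis SSP -SG carbo cells. The points of PHGDH, PSAT1, SHMT2, CCNB1, PLK1, MKI67 and RRM2 are higher and those of SLC1A4, ATF4, ASNS and DDIT3 lower in cis SSP cells without overlap, while those of PSPH, MTHFD2 and SLC1A5 overlap.

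Most of the listed genes that ATF4 induces were lower in cis SSP cells, although the serine enzymes PHGDH and PSAT1, which ATF4 also induces, were higher. ATF4 mRNA was at 522, 431 and 472 CPM in cis and 283, 287 and 295 CPM in cis SSP cells (log2 fold change -0.78, standard error 0.0369, edgeR adjusted p = 8.69e-11). ATF4 is mainly controlled at translation, which these counts do not measure. Of 28 ATF4 targets other than the serine enzymes, 21 were lower and 4 higher in cis SSP cells. The median log2 fold change of the list was -1.05, against -0.0008 over all genes tested.

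The largest differences in the list were in CTH, ATF3, PYCR1 and DDIT3. DDIT3, which encodes the stress factor CHOP, was at 65.3, 59.3 and 60.7 CPM in cis and 9.44, 9.61 and 8.86 CPM in cis SSP cells (log2 fold change -2.79, standard error 0.0630, edgeR adjusted p = 2.62e-14). ATF3, a transcription factor of the same stress response, was at 75.9, 67.8 and 72.2 CPM in cis and 9.37, 8.98 and 8.99 CPM in cis SSP cells (log2 fold change -3.04, standard error 0.0605, edgeR adjusted p = 6.97e-15). CTH, which makes cysteine from cystathionine, was at 43.9, 40.7 and 40.8 CPM in cis and 4.05, 3.16 and 4.46 CPM in cis SSP cells (log2 fold change -3.48, standard error 0.0929, edgeR adjusted p = 1.43e-13). None of these 3 genes had overlapping libraries. DDIT3 overlaps MARS1 and MBD6 on the opposite strand, and the strand setting of the counting is not stated in the sources used here, so its counts are less certain.

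Lower by more than 1 on the log2 scale were also PYCR1 (-2.81), which makes proline, TRIB3 (-2.22), SLC7A11 (-1.77), the cystine transporter, GDF15 (-1.45), a secreted stress factor, CHAC1 (-1.12), which degrades glutathione, and SESN2 (-1.12). Asparagine synthetase ASNS was lower by a smaller step, from 307, 266 and 282 CPM to 220.4, 227 and 232 CPM (log2 fold change -0.39, standard error 0.0339, edgeR adjusted p = 7.95e-08). The higher members were NUPR1 (0.75), PCK2 (0.63), the mitochondrial enzyme that makes phosphoenolpyruvate, JDP2 (0.27) and GPT2 (0.18). Of 20 cytosolic aminoacyl-tRNA synthetases, which charge tRNAs and are also induced by ATF4, 15 were lower and 2 higher, with a median of -0.46. VARS1 (-1.18), WARS1 (-0.67) and GARS1 (-0.64) were lowest, and QARS1 (0.88) and FARSA (0.62) were the higher 2, which became 4 without library 34.

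The promoters of 2 targets are shown because the letters that ATF4 binds with its partner lie in them. The search was for TGATGNAA, a form of the amino acid response element, on both strands of the RefSeq promoter windows of GRCh38.p14, which run from 250 bases before to 50 bases after the start of each gene. The match is in capitals, and the stretches lie before the start of the gene.
ASNS, chr7:97872424-97872521, minus strand: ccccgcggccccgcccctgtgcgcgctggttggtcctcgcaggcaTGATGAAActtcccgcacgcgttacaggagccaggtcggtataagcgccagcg
CHAC1, chr15:40953221-40953314, plus strand, with the motif on the other strand: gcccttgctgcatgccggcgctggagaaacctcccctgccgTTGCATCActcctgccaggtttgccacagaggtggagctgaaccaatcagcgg
In ASNS the match begins 68 bases and in CHAC1 209 bases before the start. The motif was in 1003 of 27305 promoter windows (3.67%), in 5 of the 23 ATF4 targets with a window (21.7%, ATF3, ASNS, SLC7A1, CHAC1 and FGF21) in 6 of the 16 tRNA synthetases with a window (37.5%) and in 0 of the 2 serine synthesis enzymes with a window. A match is a description of the sequence and was not tested as a binding site.

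Genes of cell division were higher in cis SSP cells as a block. All 30 G2/M and mitosis genes on the list were higher, against 37.3% of all genes tested, with log2 fold changes from 0.84 (ECT2) to 2.46 (KIF20A) and a median of 1.45. All 30 were also higher without libraries 23 and 24, and the median was 1.41 after the trend over exon length was removed and 1.32 with total counts. Such a difference in bulk RNA can come from more cells of a kind, here dividing cells, or from more RNA in each, and these cannot be told apart.

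CCNB1, the cyclin that drives entry into mitosis, was at 78.8, 69.7 and 74.2 CPM in cis and 209, 215 and 227 CPM in cis SSP cells (log2 fold change 1.49, standard error 0.0389, edgeR adjusted p = 1.17e-13). PLK1, a kinase of mitosis, was at 37.7, 31.7 and 32.8 CPM in cis and 164, 149 and 165 CPM in cis SSP cells (log2 fold change 2.17, standard error 0.05, edgeR adjusted p = 3.31e-14). MKI67, which encodes the proliferation marker Ki-67, was at 160.2, 177 and 169 CPM in cis and 339.7, 354 and 406 CPM in cis SSP cells (log2 fold change 1.05, standard error 0.0956, edgeR adjusted p = 1.17e-04). In each of these the lowest cis SSP library was well above the highest cis library. CCNA2 (2.02), CDK1 (1.97), CCNB2 (1.69) and AURKA (1.67) were higher to a similar degree. KIF20A, a kinesin of the mitotic spindle, had the largest difference of the list, and it overlaps neighbouring genes.

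The promoters of CCNB2, CDC20, MKI67 and PLK1 are shown because they hold TTTGAA, the core of the cell cycle homology region through which many G2/M genes are repressed in G0 and G1. Capitals mark the match, in the same RefSeq windows of GRCh38.p14.
CCNB2, chr15:59105072-59105145, plus strand: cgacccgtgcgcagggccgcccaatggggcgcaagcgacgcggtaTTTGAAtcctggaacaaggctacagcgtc
CDC20, chr1:43358871-43358966, plus strand: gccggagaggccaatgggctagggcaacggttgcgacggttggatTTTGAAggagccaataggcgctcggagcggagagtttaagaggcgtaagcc
MKI67, chr10:128126424-128126497, minus strand: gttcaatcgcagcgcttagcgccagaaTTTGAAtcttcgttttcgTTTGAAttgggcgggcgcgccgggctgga
PLK1, chr16:23678815-23678888, plus strand: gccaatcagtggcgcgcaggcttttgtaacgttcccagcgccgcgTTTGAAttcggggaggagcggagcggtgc
The last match begins 29 bases before the start in CCNB2, MKI67 and PLK1 and 65 bases before it in CDC20. TTTGAA was in 4212 of the 27305 windows (15.4%), in 16 of the 24 G2/M genes with a window (66.7%) and in 0 of the 35 DNA replication and S-phase genes with a window.

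DNA replication and S-phase genes were higher by a smaller step. Of 39 tested, 37 were higher and 1 lower, with a median of 0.71. The lower one, CCNE2 (-0.21), was not called under several alternatives. GINS1 (1.42), LIG1 (1.39) and GINS4 (1.38), parts of the replication machinery, led the list. RRM2, the regulated subunit of ribonucleotide reductase, was at 124, 109.7 and 115 CPM in cis and 585, 581 and 615 CPM in cis SSP cells (log2 fold change 2.29, standard error 0.0338, edgeR adjusted p = 2.00e-16), about as far apart as the mitotic genes. Its partner RRM1 (1.28) and the thymidine kinase TK1 (1.48) were higher as well, and RRM2B, the subunit induced by p53, was lower (-1.11). Of 24 purine and pyrimidine synthesis enzymes, 13 were higher and 9 lower, with a median of 0.14, and the count became 8 higher and 11 lower with total counts. CAD (-0.35) and GART (-0.28), which start pyrimidine and act in purine synthesis, were among the lower ones.

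Of 28 Fanconi anemia and homologous recombination genes, 19 were higher and 4 lower in cis SSP cells (median 0.35). FANCM (1.22), BRIP1 (1.10) and FANCI (1.03) were higher. RBBP8 (-0.62), which starts end resection, BRCA2 (-0.39) and RAD51D (-0.29) were lower. The 4 lower genes became 2 in the DESeq2 test and 1 without libraries 23 and 24, where BRCA2 (-0.19) and RAD51D (-0.24) were not called. PARP1, which senses DNA breaks and spends NAD, was at 359, 297 and 319.6 CPM in cis and 549.7, 560.1 and 577 CPM in cis SSP cells (log2 fold change 0.73, standard error 0.0362, edgeR adjusted p = 1.36e-10). Of 15 PARP family genes and PARG tested, 4 were higher, with TNKS2 (0.87) and PARP9 (0.39) beside PARP1, and 9 were lower, with TIPARP (-1.57), PARP6 (-0.91) and PARP8 (-0.88) in front.

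None of the 10 tested enzymes of NAD synthesis and salvage was higher (1 without library 22) and 6 were lower, with a median of -0.32. NAMPT, the rate-limiting salvage enzyme, was at 59.97, 52.1 and 55.4 CPM in cis and 43.2, 44.8 and 48.8 CPM in cis SSP cells (log2 fold change -0.35, standard error 0.0521, edgeR adjusted p = 2.47e-05). NMNAT2, the adenylyltransferase best known from axons, was at 64, 57.2 and 58.2 CPM in cis and 0.472, 0.771 and 0.701 CPM in cis SSP cells (log2 fold change -6.57, standard error 0.109, edgeR adjusted p = 8.19e-16). NMNAT2 was nearly absent from cis SSP cells, while NMRK1 (-0.65) and NMNAT1 (-0.43) were lower by far less.

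**Figure D2:**
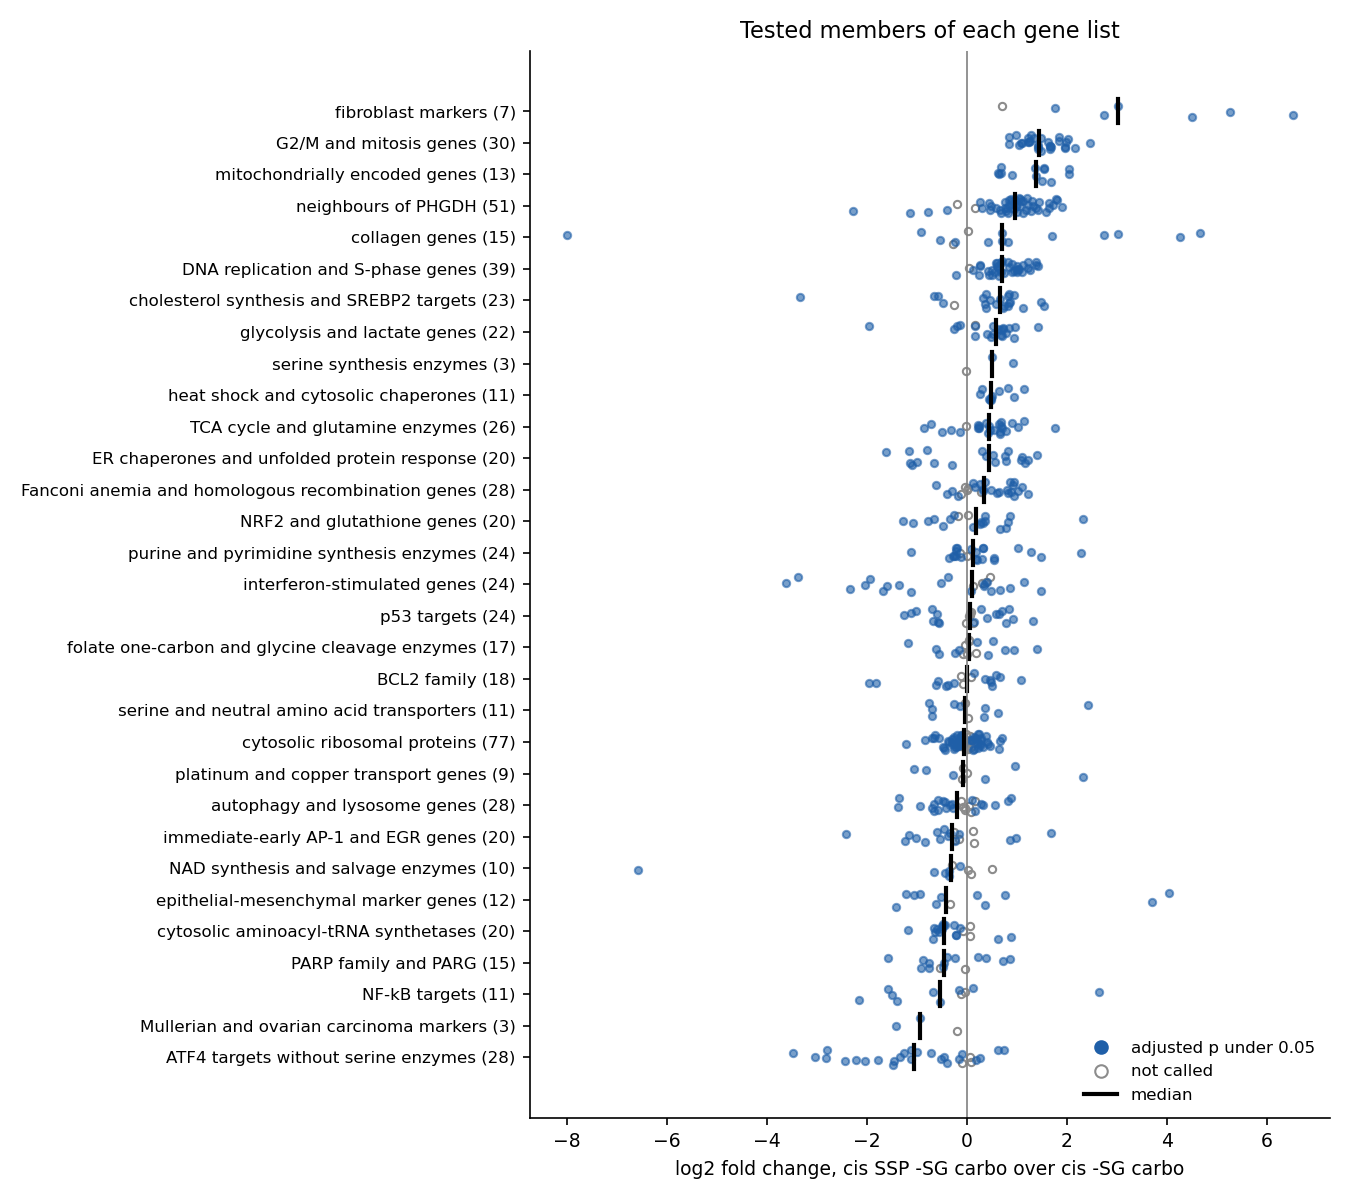
Log2 fold change of cis SSP -SG carbo over cis -SG carbo for the tested members of each gene list, 1 point per gene, with the number of members tested after each name. Filled points have an edgeR adjusted p under 0.05, open grey points do not, and the black bar is the median of the list. All 30 G2/M genes lie to the right of 0, and 21 of the 28 ATF4 targets are filled points to its left.

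Genes of central metabolism were mostly higher in cis SSP cells. Of 22 glycolysis and lactate genes tested, 17 were higher and 4 lower (median 0.58), and of 26 TCA cycle and glutamine enzymes 20 were higher and 5 lower (median 0.45). LDHA, which makes lactate, was at 552, 482 and 502 CPM in cis and 1407, 1428 and 1486 CPM in cis SSP cells (log2 fold change 1.43, standard error 0.0303, edgeR adjusted p = 1.37e-14). PGAM1 (0.97) and the lactate transporter SLC16A1 (0.95), which is also a neighbour of PHGDH on chromosome 1, were higher, and the glucose transporters SLC2A3 (-1.95) and SLC2A1 (-0.19) and the hexokinase HK2 (-0.25) were lower. The SLC2A1 call was lost in the DESeq2 test and the HK2 call in the fit over 36 libraries. In the TCA list PC (1.76), FH (1.15) and SDHA (1.02) were higher, and the cytosolic enzymes IDH1 (-0.85), ACO1 (-0.72) and GOT1 (-0.49) were lower.

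Cholesterol synthesis and SREBP2 target genes were higher in 18 and lower in 4 of 23 tested, with a median of 0.68. EBP (1.55) and ACAT2 (1.48), which overlaps the highly expressed TCP1, were among the higher ones, and the sterol enzymes SC5D (-0.65) and MSMO1 (-0.57) were lower. STARD4, a sterol carrier, went far in the other direction, from 312, 278 and 293 CPM in cis to 30.4, 31.8 and 29 CPM in cis SSP cells (log2 fold change -3.34, standard error 0.0436, edgeR adjusted p = 4.78e-17).

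All 13 mitochondrially encoded genes were called higher in cis SSP cells. The median was 1.39 and the range ran from 0.63 (MT-ND6) to 2.05 (MT-ATP6 and MT-ATP8). MT-ATP6 was at 835, 958 and 751 CPM in cis and 4063, 3812 and 3119 CPM in cis SSP cells (log2 fold change 2.05, standard error 0.173, edgeR adjusted p = 4.21e-04), a wider spread between libraries than in the nuclear genes above. MT-CO2 was at 2288, 2277 and 1862 CPM in cis and 7796, 7429 and 6234 CPM in cis SSP cells, with the lowest value of each line in its last library. Without libraries 23 and 24, 8 of the 13 were called and the median was 1.47. Of 77 cytosolic ribosomal protein genes tested, 24 were higher and 35 lower (median -0.06), and 15 were higher and 47 lower with total counts. RPL4 (-1.21), RPL30 (-0.84) and RPL22 (-0.70) were lower and RPS7 (0.71), RPL41 (0.66) and RPS15 (0.64) higher. Many of these genes have processed pseudogenes, so their counts are less certain, and a fit over all 36 libraries called 6 higher and 8 lower.

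Most chaperone genes tested were higher in cis SSP cells. All 11 tested heat shock and cytosolic chaperones (14 listed) were higher in cis SSP cells (median 0.49). They were led by HSPB1 (1.14), HSPE1 (0.95), which works in mitochondria, and HSPH1 (0.82). Of 20 genes of the ER and the unfolded protein response, 12 were higher and 8 lower (median 0.45). CALR, which encodes the chaperone calreticulin, was at 577, 482 and 517 CPM in cis and 1276, 1283 and 1304 CPM in cis SSP cells (log2 fold change 1.24, standard error 0.0331, edgeR adjusted p = 1.47e-13), and SDF2L1 (1.41) and CRELD2 (1.17) were also higher. The lower members were ERN1 (-1.61), which encodes the sensor IRE1, DNAJB9 (-1.16), EDEM1 (-1.13) and SEL1L (-1.10), genes of ER stress sensing and of ER-associated degradation, together with HSPA5 (-0.99) and XBP1 (-0.80). SEL1L, HSPA5 and XBP1 are named here after their values were seen.

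The p53 targets did not differ one way between the treated lines. Of 24 tested, 10 were higher and 8 lower, with a median of 0.07. CDKN1A, which encodes the cell cycle inhibitor p21, was at 344, 275 and 299 CPM in cis and 349.9, 344 and 363 CPM in cis SSP cells (log2 fold change 0.15, standard error 0.0418, edgeR adjusted p = 0.00586), with the highest cis library level with the lowest cis SSP one. The CDKN1A call was lost with total counts (0.0107), over 36 libraries, without library 24 and without libraries 23 and 24 (0.0360). MDM2, the ubiquitin ligase of p53, was at 413, 390.3 and 388 CPM in cis and 425, 422 and 432 CPM in cis SSP cells, and the difference did not pass the test (edgeR adjusted p = 0.241), whereas with total counts it was called lower (-0.0958). DDB2 (1.33), TRIAP1 (0.93) and PPM1D (0.84) were higher, and EDA2R (-1.26), RRM2B (-1.11) and GADD45A (-1.02) were lower. The higher and lower members thus lay on both sides of 0 by similar amounts.

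Of 18 BCL2 family genes, 8 were higher and 7 lower, near the 37.3% higher and 36.5% lower of all genes tested. BAD (1.09), BAK1 (0.67) and BAX (0.59), which promote apoptosis, were higher, and HRK (-1.95) and BCL2L11 (-0.61), which also promote it, and BCL2 (-1.81), which blocks it, were lower. Of 9 platinum and copper transport genes tested (13 listed), 3 were higher and 3 lower, also near those shares. SLC31A1, which encodes the copper transporter CTR1 that also carries platinum drugs into cells, was at 222, 192 and 204 CPM in cis and 102, 99.7 and 106 CPM in cis SSP cells (log2 fold change -1.06, standard error 0.0367, edgeR adjusted p = 2.30e-12). ABCC2, an export pump, was at 3.22, 3.89 and 2.95 CPM in cis and 18.6, 17.4 and 17 CPM in cis SSP cells (log2 fold change 2.33, standard error 0.123, edgeR adjusted p = 2.73e-10). ATOX1 (0.97) and LRRC8A (0.37) were also higher, and LRRC8D (-0.81) and CCS (-0.27) lower, of which CCS was not called in the DESeq2 test, over 36 libraries or without library 36. With total counts, 5 members were lower.

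NRF2 and glutathione genes were higher in 11 and lower in 7 of 20 tested, beside 37.3% and 36.5% of all genes tested. HMOX1, the heme oxygenase, was at 402, 325 and 341 CPM in cis and 151, 151 and 157 CPM in cis SSP cells (log2 fold change -1.28, standard error 0.0427, edgeR adjusted p = 2.04e-12), and FTH1 (-1.07) and GCLM (-0.78) were lower too, whereas GPX1 (0.83) was higher. Of 28 autophagy and lysosome genes, 14 were lower, among them WIPI1 (-1.38), OPTN (-1.36) and SQSTM1 (-0.94), and 7 were higher, among them CTSD (0.89) and ATP6V1A (0.82). Of 20 immediate-early genes, 12 were lower and 3 higher (median -0.30), with NR4A1 (-2.42), EGR2 (-1.24) and JUN (-1.16) lower and FOS (1.68), FOSL1 (1.0) and DUSP1 (0.87) higher. The higher immediate-early genes numbered 5 without library 22 or without library 35.

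Of 11 NF-kB targets tested (20 listed), 7 were lower and 2 higher, with a median of -0.53. BIRC3 (-1.50), TNFAIP2 (-0.67) and NFKB2 (-0.53) were lower. Log2 fold changes in the list ran from -2.15 to 2.64, but the genes at these ends were not called or averaged under 50 counts. The higher NFKB1 (0.13) was not called with total counts or without libraries 23 and 24, where its sign turned, and requiring 10 counts in every library left 0 higher and 4 lower. Interferon-stimulated genes were higher in 9 and lower in 11 of 24 tested (median 0.11), with 5 higher under total counts. IFIT1, an antiviral RNA-binding protein, was at 183, 172 and 179 CPM in cis and 15, 14.7 and 15.7 CPM in cis SSP cells (log2 fold change -3.62, standard error 0.0481, edgeR adjusted p = 5.53e-17). IFIT2 (-3.38) and IFIT3 (-2.04), from the same gene cluster, were lower with it, and all of them overlap LIPA on the opposite strand. IFI6 (1.48), OAS3 (1.15) and IFITM2 (0.87) were higher.

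Several genes were expressed in one line and almost not in the other. COL12A1, a collagen of fibril surfaces, was at 1077, 1082 and 1105 CPM in cis and 4.65, 4.42 and 4.21 CPM in cis SSP cells (log2 fold change -8.00, standard error 0.0652, edgeR adjusted p = 3.13e-18). DKK1, a secreted Wnt inhibitor, was at 292, 246 and 266 CPM in cis and 0.472, 0.491 and 0.382 CPM in cis SSP cells (log2 fold change -9.26, standard error 0.0853, edgeR adjusted p = 2.98e-18). FILIP1 went from 204, 191 and 186 CPM in cis to 0.607, 0.771 and 0.637 CPM in cis SSP cells, and KHDRBS3 (-7.73), PTGER3 (-8.22), a prostaglandin E receptor, and SLC4A4 (-8.05), a bicarbonate transporter, were nearly absent from cis SSP cells as well. The lowest value of these genes in a cis library was 63 CPM (SLC4A4), and the highest in a cis SSP library was 4.65 CPM (COL12A1).

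For the genes with the fewest counts the ratio of summed counts, scaled by the TMM-adjusted library sizes, is given with an exact 95% interval. The interval covers counting error only. TNFRSF19, a receptor of the TNF family, had 13647 counts in the 3 cis libraries and 7 in the 3 cis SSP libraries, a ratio of 1616 (784 to 4019). PRKG1, the cGMP-dependent kinase, had 2534 counts against 1, a ratio of 2100 (377 to 82973), CSRNP3 had 816 against 1, a ratio of 676 (121 to 26741), and SCN3A, a sodium channel, had 1093 against 5, a ratio of 181 (77.4 to 559). The intervals of PRKG1 and CSRNP3 are wide because a single read was counted in the cis SSP libraries.

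In the other direction, CDH2, which encodes N-cadherin, was at 75.7, 62.2 and 66.4 CPM in cis and 1144, 1156 and 1213 CPM in cis SSP cells (log2 fold change 4.04, standard error 0.0408, edgeR adjusted p = 3.13e-18). PDGFRA, a growth factor receptor of mesenchymal cells, was at 6.27, 5.51 and 5.84 CPM in cis and 229.8, 236 and 246 CPM in cis SSP cells (log2 fold change 5.27, standard error 0.0527, edgeR adjusted p = 3.13e-18). DHRS2, a short-chain dehydrogenase, was at 0.632, 0.334 and 0.697 CPM in cis and 31.6, 33.5 and 29.3 CPM in cis SSP cells (log2 fold change 5.74, standard error 0.153, edgeR adjusted p = 1.39e-13). Among called genes annotated as protein-coding and with a mean of at least 50 counts, DCN (6.54), a small proteoglycan, had the largest positive log2 fold change, and GPC5 (5.20), KCNJ5 (5.16), OLFML1 (5.05), DAZL (5.03), DMP1 (5.01), ATRNL1 (4.96) and SLITRK5 (4.88) followed. Each of these was under 2 CPM in every cis library. A gene without a symbol or biotype here, ENSG00000104725, had a larger value (8.71) and averaged 1.24 CPM in cis and 546 CPM in cis SSP cells, and it is given after its values were seen.

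Collagen and mesenchymal genes differed in both directions, with more of the collagen genes higher than lower. Of 15 collagen genes tested, 9 were higher and 4 lower (median 0.71). COL4A1 (4.67) and COL4A2 (4.28), the main collagens of basement membranes, which lie head to head and overlap, and COL1A2 (3.04) were higher, and COL12A1, COL7A1 (-0.91) and COL16A1 (-0.53) were lower. Of 12 epithelial-mesenchymal markers, 5 were higher, led by CDH2, the calcium-binding protein S100A4 (3.72) and SNAI2 (0.77), and 6 were lower, led by the keratin KRT18 (-1.42), SPARC (-1.05), SNAI1 (-0.60) and, named after its value was seen, FN1 (-1.22).

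The labelled origin of the line was checked against markers. Of 12 markers of Mullerian epithelium and ovarian carcinoma, 10 (PAX8, PAX2, WT1, EMX2, SOX17, MUC16, EPCAM, KRT7, MSLN and WFDC2) were under 1 CPM in all 6 libraries, so these defining markers were absent or near 0 in both lines. The summed level of the list was 41.9 to 47.7 CPM in cis and 17 to 18.9 CPM in cis SSP cells, mostly from KRT18. KRT8 had 6.42% of the counts of KRT18 over the 6 libraries. All 7 leukocyte markers were under 1 CPM in every library, with sums of 0.501 to 0.750 CPM in cis and 0.421 to 0.607 CPM in cis SSP cells. All 5 matched endothelial and erythroid markers were also under 1 CPM, with sums of 0.214 to 0.278 and 0.421 to 0.574 CPM. Of 7 fibroblast markers, 6 were higher and 0 lower in cis SSP cells (median 3.04), and 3 were called when 10 counts were required in every library. Their sum was 38.4 to 44.8 CPM in cis and 384 to 405 CPM in cis SSP cells, most of it PDGFRA in the cis SSP libraries alone.

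Whether genes silent in one line in serine-replete medium stayed silent under deprivation and carboplatin was examined with sets chosen on the complete-medium and carbo libraries. A gene entered a set if it was at or above 10 CPM in one line and at or under 2% of that level in the other. The 14 genes that were near 0 in cis and on in cis SSP cells included CDH2, COL4A1, COL4A2, KCNJ5, GPC5 and OLFML1. Their median level, as a percentage of the cis SSP level in complete medium, was 0.465, 0.814 and 0.649 in the 3 cis libraries and 0.328 to 0.440 in the cis carbo libraries. It was 5.67 to 5.88 in the cis -SG libraries and 4.10, 3.67 and 3.88 in the cis -SG carbo libraries. The rule held the serine-replete cis levels at or under 2% and set no limit on the deprived ones. The lower serine-replete median therefore follows in part from the choice of genes. Not every gene of the set was above 2% in the deprived cis groups. As a percentage of the cis SSP level in the same condition, ENSG00000104725 was at 0.159% in cis and 0.178% in cis carbo cells. It was at 0.165% in cis -SG and 0.228% in cis -SG carbo cells. CDH2 was at 12.7 ± 0.193 CPM in cis, 10.2 ± 0.480 in cis carbo, 103 ± 3.89 in cis -SG and 68.1 ± 6.90 in cis -SG carbo cells (mean ± SD, n = 3 libraries), and at 1171 ± 37.2 CPM in cis SSP -SG carbo cells.

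The reverse set held 13 genes that were on in cis and near 0 in cis SSP cells, among them DKK1, COL12A1, FILIP1, TNFRSF19, PTGER3, PRKG1, TCF4 and WLS. In the cis SSP -SG carbo libraries their median was 0.264% to 0.344% of the cis level in complete medium, inside the range of the other cis SSP libraries. Parental wt cells in complete medium had 7 of the 14 and 8 of the 13 genes above 1 CPM. These sets were chosen on the serine-replete libraries of the same lines, so their levels are given as a description without a test.

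**Figure D3:**
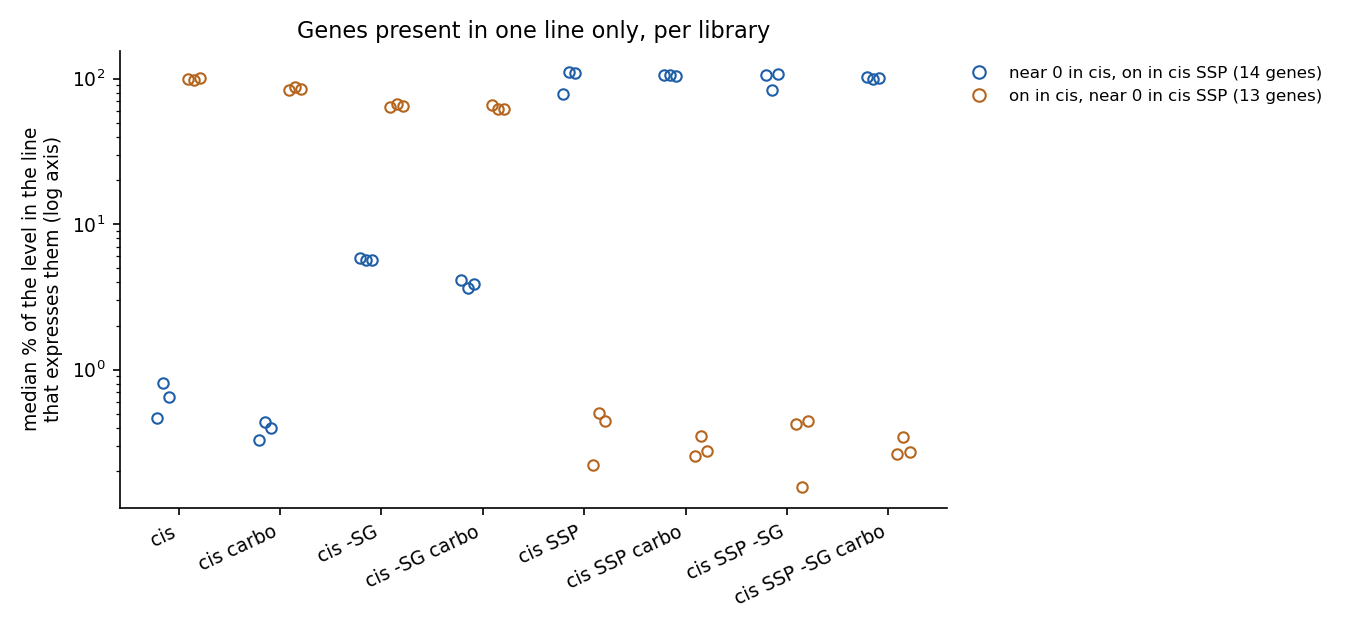
Median level of 14 genes near 0 in cis and on in cis SSP cells and of 13 genes on in cis and near 0 in cis SSP cells, as a percentage of the level in complete medium of the line that expresses them (log axis), 1 point per library in 8 conditions. The first set is under 1% in the cis and cis carbo libraries and between 3.67% and 5.88% in the cis -SG and cis -SG carbo libraries, while the second set stays under 1% in all cis SSP libraries. The choice of genes held the serine-replete levels of the line that lacks them at or under 2%.

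Along the genome, genes near PHGDH were higher in cis SSP cells together with it. Of 51 tested genes within 10 Mb of PHGDH with a mean of at least 50 counts, 45 were higher and 4 lower, with a median of 0.96. Over the rest of chromosome 1, 496 of 1083 genes (45.8%) were higher, with a median of 0.11. NRAS (1.28), the GTPase gene, RHOC (1.81), WARS2 (0.99), a mitochondrial tRNA synthetase, ATP5PB (1.73), a subunit of ATP synthase, and PHTF1 (1.91) were among the higher neighbours, and NOTCH2 (0.91), on the other side of PHGDH, was higher too. The lower ones included SLC22A15 (-2.27), LRIF1 (-0.40) and WARS2-AS1 (-0.78), and DENND2C (0.16) and ZNF697 (-0.20) did not pass the test. These neighbours are named after their values were seen.

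The block extended to the left of this window and then ended. From 10 to 20 Mb before PHGDH, 39 genes had a median of 0.71, and from 30 to 40 Mb before it the median was -0.44. The same 51 genes had medians of 0.92 in complete medium (leaving out library 25), 0.94 with carboplatin and 0.92 without serine and glycine (leaving out library 32), so the median differed little between conditions. Single genes differed more. In the test of the medium with carboplatin given below, 19 of the 51 had a more positive line difference without serine and glycine. Another 15 had a more negative one, beside 30.4% and 25.9% of all genes tested. Libraries 25 and 32 stand apart from the others of their cis SSP groups, with a mean exon length of counted genes of 5965 and 6039 bases. The pattern was already known from the complete-medium libraries and is not independent of them. On chromosome 8, 236 of 385 genes (61.3%) were lower and 76 higher, with a median of -0.34, and on chromosome 19, 471 of 845 (55.7%) were higher, with a median of 0.28. DNA copy number was not measured in these samples.

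**Figure D4:**
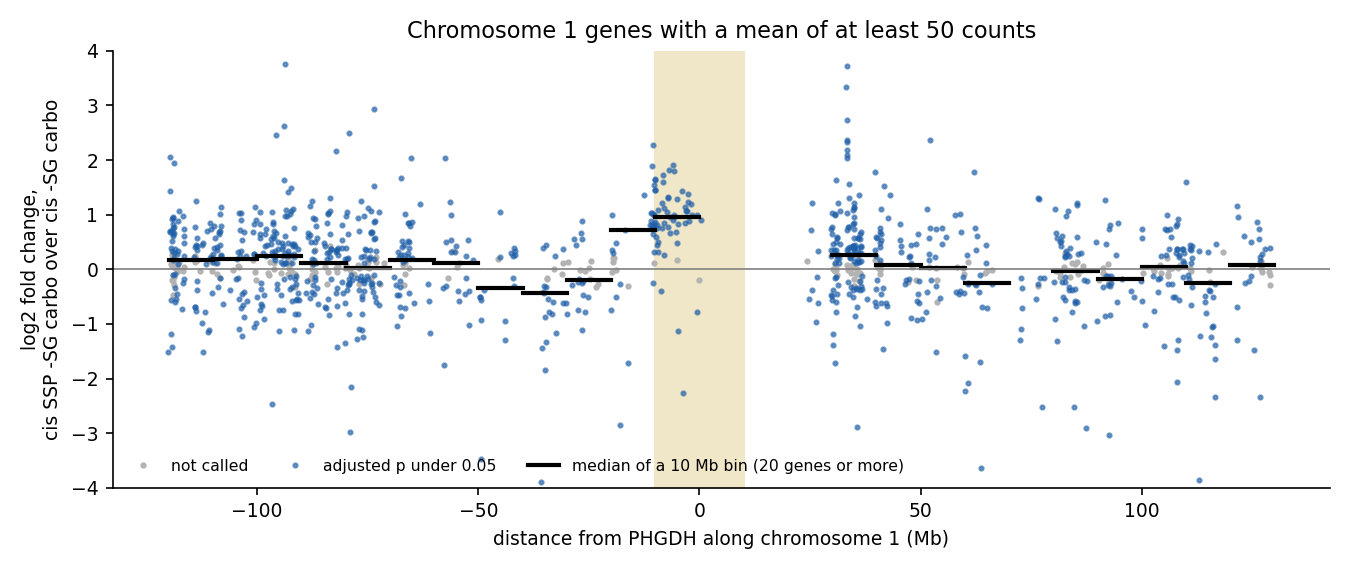
Log2 fold change of cis SSP -SG carbo over cis -SG carbo for chromosome 1 genes with a mean of at least 50 counts, against distance from PHGDH in Mb, with bars at the median of each 10 Mb bin of 20 genes or more and the 10 Mb on each side shaded. The bins that end at PHGDH and 10 Mb before it have medians of 0.95 and 0.71, and 7 genes lie outside the axis of -4 to 4.

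Whether the difference between the lines depended on the medium was tested with carboplatin present throughout, as the difference in -SG carbo minus that in carbo. Of 14767 genes tested, 8313 (56.3%) passed, 4487 (30.4%) with a more positive difference without serine and glycine and 3826 (25.9%) with a more negative one. With total counts these were 3430 and 4884. All 30 G2/M genes passed with a positive value (median 1.47), as did 38 of 39 S-phase genes (median 0.79), 22 of 23 cholesterol genes (median 1.31), 18 of 23 glycolysis genes, 21 of 26 TCA genes and the 3 serine enzymes (median 0.40), of which PSPH did not pass with total counts or without libraries 23 and 24. Among ATF4 targets, 15 of 28 were more negative and 9 more positive (median -0.37).

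The group levels show in which line the values differed between media. CCNB1 was at 226 ± 6.40 CPM in cis carbo and 74.2 ± 4.54 in cis -SG carbo cells, and at 236 ± 9.81 in cis SSP carbo and 217 ± 9.48 in cis SSP -SG carbo cells (mean ± SD, n = 3 libraries each). The lines were thus close in CCNB1 with serine and glycine and far apart without, where the cis level was lower (interaction 1.44, standard error 0.0501, edgeR adjusted p = 2.17e-17). PLK1 (183 ± 7.89 to 34.1 ± 3.16 CPM in cis, 181 ± 6.35 to 159 ± 9.08 in cis SSP cells) and LDHA (1298 ± 41.9 to 512 ± 36.2 CPM in cis, 1474 ± 28 to 1440.4 ± 41.1 in cis SSP cells) had the same order of levels. HMOX1 had the reverse order, from 75.9 ± 1.74 to 356 ± 40.5 CPM in cis and from 164 ± 3.78 to 153 ± 3.71 CPM in cis SSP cells (interaction -2.37, standard error 0.0546, edgeR adjusted p = 1.78e-20).

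The serine enzymes differed between media mainly in cis SSP cells. PHGDH was at 129 ± 4.39 CPM in cis carbo and 163 ± 12.5 in cis -SG carbo cells, and at 188 ± 3.02 in cis SSP carbo and 322 ± 5.60 in cis SSP -SG carbo cells (interaction 0.40, standard error 0.0430, edgeR adjusted p = 2.38e-08). PSAT1 was at 697 ± 16.2 and 644 ± 46.9 CPM in the cis groups and at 569.9 ± 18.5 and 947 ± 28.2 in the cis SSP groups (interaction 0.80, standard error 0.0395, edgeR adjusted p = 1.52e-14). The lead of cis SSP cells in PSAT1 was thus present without serine and glycine and not in the serine-replete carbo libraries, where cis cells were higher. For CDKN1A the interaction did not pass the test (-0.09, edgeR adjusted p = 0.132).

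The most negative interactions with medium among protein-coding genes were in KLF4 (-4.68), ALPK1 (-4.48), CDX2 (-4.41) and SLFN5 (-4.36), all of which passed without libraries 23 and 24. KLF4, a transcription factor, was at 0.434 ± 0.345 CPM in cis carbo and 15 ± 1.65 in cis -SG carbo cells, and at 6.25 ± 0.595 and 9.07 ± 0.166 in the cis SSP groups. SLFN5, an interferon-regulated gene, was at 0.544 ± 0.123 and 14.2 ± 0.722 CPM in the cis groups and at 0.807 ± 0.274 and 1.06 ± 0.658 in the cis SSP groups. ATRNL1 also ranked here, but it had no counts in the 3 cis carbo libraries, so no fold is given. The most positive were PLA2G3 (3.59), a secreted phospholipase, P2RX5 (2.83), STAC2 (2.74), ACAT2 (2.68) and MEOX1 (2.58). PLA2G3 was at 42.1 ± 0.910 CPM in cis carbo and 3.01 ± 0.679 in cis -SG carbo cells, and at 19 ± 0.447 and 16.9 ± 0.666 in the cis SSP groups. P2RX5 had at most a few reads in a cis SSP library, so its value is imprecise (standard error 1.02) and did not pass without library 35 or 36.

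Whether the difference between the lines depended on carboplatin was tested without serine and glycine, as the difference in -SG carbo minus that in -SG. Of 14870 genes tested, 393 (2.64%) passed, 315 (2.12%) more positive and 78 (0.525%) more negative with carboplatin. This count rested on single libraries. It was 4589 without library 32 of cis SSP -SG cells, whose counts lay on shorter genes than those of its group, 26 without libraries 23 and 24, and 3623 without all 3. Without library 32, 2236 of 15410 genes (14.5%) were more positive and 2353 (15.3%) more negative, and without libraries 23 and 24, 23 of 15617 (0.147%) were more positive and 3 (0.0192%) more negative. Leaving out library 23, 24, 34, 35 or 36 gave 143, 126, 155, 168 and 216.

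Of 24 p53 targets tested, 8 passed with a more positive difference under carboplatin and 0 with a more negative one (median 0.68), and without library 32 all 24 were more positive (median 0.61). Without libraries 23 and 24, 4 were more positive. CDKN1A was at 154 ± 2.38 CPM in cis -SG and 306 ± 34.9 in cis -SG carbo cells, and at 48.2 ± 7.06 in cis SSP -SG and 352 ± 9.78 in cis SSP -SG carbo cells (interaction 1.84, standard error 0.143, edgeR adjusted p = 1.90e-04). The level without carboplatin was lower in cis SSP cells and the level with it was close in both lines. ATF4 targets went the other way, with 10 of 28 more negative and 1 more positive (median -0.59), and with 20 more negative and 3 more positive without library 32 (median -0.55). Without libraries 23 and 24, 1 ATF4 target was more negative and 0 were more positive. Of the 13 mitochondrially encoded genes 9 were more positive, with 13 without library 32 and 1 without libraries 23 and 24.

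Single genes with a large interaction with carboplatin included LIF (2.28), KANK4 (2.24), BMP2 (2.23), GPR84 (2.11) and CD274 (2.04) on the positive side. LIF, a cytokine, was at 48.2 ± 1.64 CPM in cis -SG and 57.7 ± 3.27 in cis -SG carbo cells, and at 7.65 ± 1.11 in cis SSP -SG and 46.4 ± 1.56 in cis SSP -SG carbo cells (standard error 0.137, edgeR adjusted p = 4.34e-05). CD274, which encodes PD-L1, was at 2.72 ± 0.629 and 3.04 ± 0.305 CPM in the cis groups and at 1.56 ± 0.442 and 7.29 ± 0.801 in the cis SSP groups. On the negative side were MOV10L1 (-2.90), TJP3 (-1.98), FUT1 (-1.78), INHBE (-1.72) and BEST1 (-1.51). INHBE, an ATF4 target that encodes an activin subunit, was at 19.2 ± 0.672 and 14.9 ± 1.57 CPM in the cis groups and at 68.2 ± 3.98 and 16.6 ± 1.37 CPM in the cis SSP groups (standard error 0.123, edgeR adjusted p = 1.30e-04). MOV10L1 and BEST1 also lost the call in several fits without 1 library. Without libraries 23 and 24, LIF, BMP2, GPR84, FUT1 and INHBE passed and the other 5 of these genes did not.

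PSAT1 was at 1554 ± 14.4 CPM in cis SSP -SG and 947 ± 28.2 in cis SSP -SG carbo cells, and at 749 ± 17.4 and 644 ± 46.9 CPM in the cis groups (interaction -0.54, standard error 0.0887, edgeR adjusted p = 0.00972). The value for PSAT1 was -0.61 without libraries 23 and 24, where it did not pass, and it did not pass without library 34. PHGDH, from 618 ± 140.2 to 322 ± 5.60 CPM in cis SSP cells and from 208 ± 4.45 to 163 ± 12.5 CPM in cis cells, had an interaction of -0.63 that did not pass (edgeR adjusted p = 0.0982), and the spread of the cis SSP -SG group came with library 32. Without library 32, all 3 serine enzymes passed with a negative value (median -0.47), PHGDH at -0.47, and without libraries 23 and 24 none of the 3 passed.

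**Figure D5:**
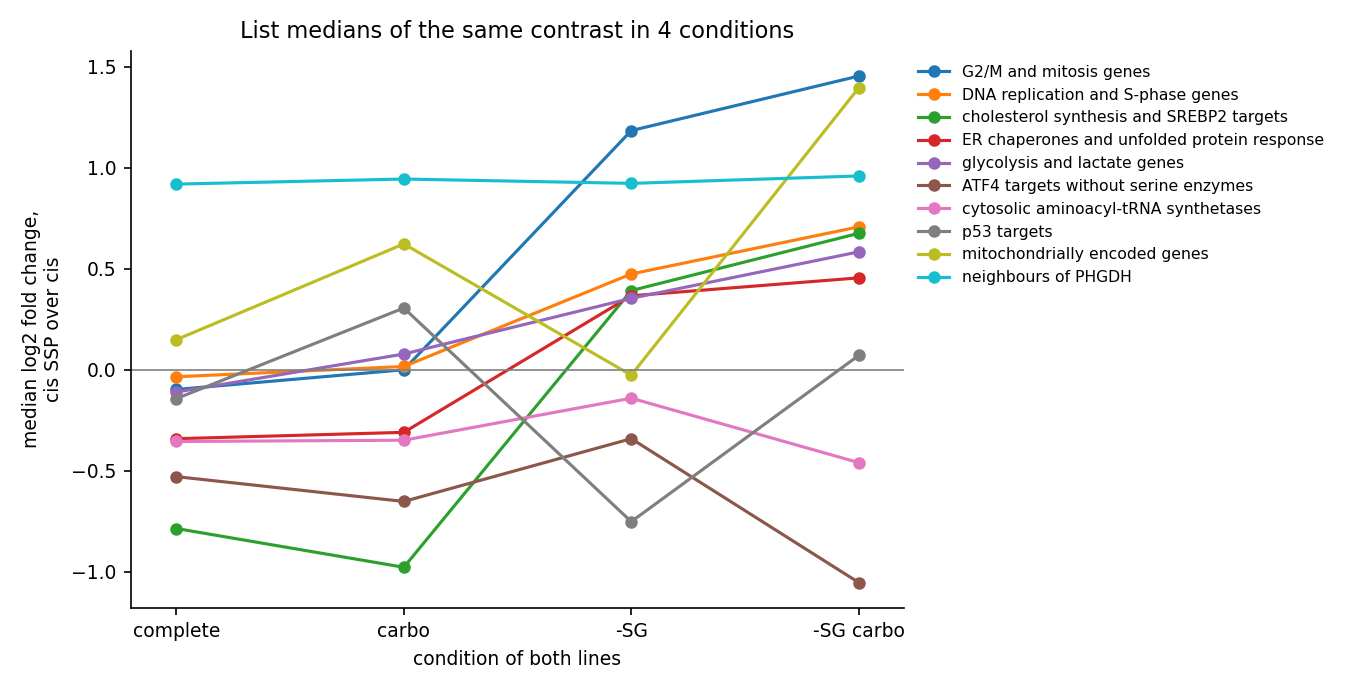
Median log2 fold change of cis SSP over cis for 10 gene lists, with both lines in complete medium, with carboplatin (carbo), without serine and glycine (-SG) or with both (-SG carbo), 1 point per list and condition. Libraries 25 and 32 are left out of the complete and -SG medians. The G2/M median goes from -0.10 and 0.00 in the serine-replete conditions to 1.18 and 1.45 in the deprived ones, the ATF4 target median is lowest in -SG carbo at -1.05, and the PHGDH neighbours stay between 0.92 and 0.96.

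The conditions differed most clearly in the medium. The cholesterol median went from -0.78 and -0.98 in the complete and carbo conditions to 0.39 and 0.68 in -SG and -SG carbo, and the ER chaperone median from -0.34 and -0.31 to 0.37 and 0.45. The p53 median was -0.75 in -SG and 0.07 in -SG carbo, against -0.14 and 0.31 in the serine-replete pair. These contrasts share no libraries with each other but come from the same lines and sequencing, and their medians are given as a description.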

How the data were processed

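RNA-seq counts of 36 libraries of A2780 cells were used, of which 6 make up the comparison and 12 each interaction fit. The authors deposited raw counts per gene: STAR alignment to GRCh37.p13, conversion with SAMtools, and HTSeq counting over GENCODE v19 exons. The strand setting is not given in the sources used here. Besides genes marked in the text, HSPE1, ATOX1, BAD, PC, GART, PARP9, TJP3 and BEST1, among others, overlap an opposite-strand gene with more counts. AMT overlaps NICN1, which also has more counts, on the same strand. The counts of these genes are less certain. The table held 57820 gene identifiers, 55538 of which were given a symbol and position from GENCODE v44 mapped to GRCh37, and 3 rows that name no gene, which stayed out of library sizes and tests. Groups came from the labels, which give library numbers and no replicate numbers within a condition. The total counts of 14644029 to 16664649 per library set the sampling noise, and no replicate pair agreed within it (mean chi-square over genes 1.79 to 8.00).

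Counts were fitted with edgeR 4.0.16 in R 4.3.3 on the 6 libraries of the comparison, with TMM, filterByExpr, robust glmQLFit and glmQLFTest. Called genes have an adjusted p under 0.05 (Benjamini-Hochberg over all genes tested). Interactions were fitted on 12 libraries each. The standard error is the absolute log2 fold change divided by the square root of F. The study used DESeq2, which was run as an alternative (1.42.0). Other alternatives were DESeq2's size factors, total counts, other filters on low counts, protein-coding genes alone, a fit over 36 libraries, a minimum absolute log2 fold change of 1, and fits that dropped 1 library of the comparison or both libraries 23 and 24. The minimum mean of 50 counts and the fits without library 32 or 25 were added after seeing the data. The lists and libraries were chosen with earlier results of these data known. Named genes are 16 set by name, the 10 called protein-coding genes with the largest change in each direction, up to 3 in each direction of a list and 5 in each direction of an interaction, all with a mean of at least 50 counts. Other list members and neighbours that the text names were chosen after their values were seen.

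On simulated counts with 200 genes changed by 1 on the log2 scale, the comparison recovered 200 of 200 with 19 false calls among 14274 genes, and the interactions with carboplatin and with medium recovered 154 and 198. At a change of 0.5 the comparison recovered 191 of 200 with 6 false calls. The simulation gave every gene the same dispersion and held no outlying library. It therefore does not show how the tests perform where most genes differ or libraries stand apart. Promoter sequences are RefSeq's on GRCh38.p14, and no coordinates were converted between builds. Python 3.11.15, pandas 2.3.3 and matplotlib 3.10.9 were used for tables and plots. Some items are not reported here.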

Additional observations from a re-analysis of the deposited data

Results flagged for a closer look

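The difference between cis SSP and cis cells itself differed with the other treatment, tested as an interaction. With carboplatin present, 8313 genes had a different line contrast with and without serine and glycine. Without serine and glycine, 393 genes had a different line contrast with and without carboplatin, a count that moved from 26 to 4589 with the libraries left out.

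The share of counts on no annotated feature, which no comparison uses, was 17.9% in cis library 23 and 14.9% in cis library 24, above every one of the other 34 libraries, which reached at most 9.31%. The part of these shares in the results was not tested. The comparison without both libraries called 9412 genes.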

How the results depend on the processing

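The count of 10561 called genes was between 8868 and 12033 under the alternatives, and 9834 to 11326 when 1 library was dropped. A minimum absolute log2 fold change of 1 left 2985. The interaction with medium (8313) gave 5354 in the fit over 36 libraries and 1943 at an absolute value of at least 1, and 7906 to 8906 when 1 library was dropped. The interaction with carboplatin (393) was the least stable, with 782 in DESeq2, 1361 over 36 libraries, 26 without libraries 23 and 24, 4589 without library 32, 3623 without all 3, 134 at an absolute value of at least 1, and 126 to 406 when 1 library of the comparison was dropped. The fits without libraries 23 and 24 leave 1 library of cis -SG carbo, which is assumed to vary like those of the other group. No paired analysis was possible because the labels give no replicate numbers within a condition.

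Of 193 named genes, 178 kept their side of the threshold and their direction in every alternative fit that tested them. The minimum absolute log2 fold change of 1 is not counted among these fits. Called genes with smaller changes, such as PHGDH (0.93) and PSAT1 (0.50), fall under it. Signs turned only for small values. PSPH was 0.0124 in DESeq2, 0.0166 without a filter and 0.0162 over 36 libraries, and ran from -0.0481 to 0.0622 with single libraries left out. SLC1A5 ran from -0.067 to 0.0545 in those fits. MTHFD2 was 0.0171 in DESeq2, 0.0209 without a filter and 0.0201 over 36 libraries, and ran from -0.0174 to 0.0362 with single libraries left out. With total counts PSPH (-0.14), SLC1A5 (-0.16), MTHFD2 (-0.14) and MDM2 were called lower. MDM2 was -0.0958 with total counts, -0.0009 at 10 counts in every library and -0.0132 at a mean of 50 counts. NFKB1 was -0.0077 with total counts and -0.0068 without libraries 23 and 24, and INHBE was -0.0446 with total counts. Of these, NFKB1 was the one called in the comparison. CDKN1A, CCNE2, AMT, BRCA2, RAD51D, CCS, HK2 and SLC2A1 lost the call in at least 1 alternative fit. The cause of these changes was not tested. Depth limits the genes with single counts in one line, whose ratios have intervals that span more than 100-fold.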

Other observations

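The S100A genes, small calcium-binding proteins most of which lie in a cluster on the long arm of chromosome 1, were looked at after their values were seen. All 11 that could be tested were higher in cis SSP -SG carbo than in cis -SG carbo cells, against 37.3% of all genes tested. Their log2 fold changes ran from 0.46 to 3.72, with a median of 2.19. S100A4, at 71.5, 62.3 and 65.7 CPM in cis and 886, 904 and 943 CPM in cis SSP cells, had the largest difference. No test of the group was made.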
